A study of Homo sapiens with 8 samples.

Results

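Epithelial cells hold one another through adherens and tight junctions and read many pre-mRNAs in an epithelial splice form. E-cadherin joins neighbouring cells at adherens junctions, claudins form the paracellular seal of tight junctions, and the ESRP proteins are RNA-binding factors that promote epithelial exon choice. Transcription factors such as GRHL2 and OVOL1 sustain these genes, and ZEB and SNAIL factors repress them when cells turn mesenchymal. The genes described here are 10 of this program, taken by symbol from the 57884 genes listed in both deposited tables: CDH1, EPCAM, CLDN1, CLDN4, CLDN7, ST14, ESRP1, ESRP2, GRHL2 and OVOL1. All 10 passed the filter on low values (1 FPKM or more in at least 2 libraries), which 17994 listed genes passed. FPKM is a count of fragments scaled to transcript length and library size, so it is a level per length. GRHL2, OVOL1 and ST14 passed through the 2 batch 2 libraries labelled knockout alone, so they had to stand apart there. ESRP1 reached 1 FPKM in 3 libraries, that pair and batch 1 wild type in serine/glycine-free medium (2.09). It too would not have passed without the pair.

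RNA was sequenced from 8 cultures labelled hTERT-RPE1, a human line derived from retinal pigment epithelium and made immortal with telomerase. Wild-type cells and cells labelled ATF3(-/-) were kept in complete medium (time 0 h) or moved to serine/glycine-free medium for 8 h, with 2 cultures in each of the 4 groups. ATF3 is a DNA-binding protein of the ATF/CREB group that many stresses induce, and the series asks how it shapes gene expression when serine is withdrawn. The replicate numbers stand for 2 separate experiments (batches) run a week apart, and each batch has a table of its own, so the 2 tables are treated here as normalized separately. The labels name neither the ATF3 allele nor whether the knockout cells were 1 clone or several.

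Several facts of the series bear on every value below. Fragment totals are not given; from the commonest ratio of low values, relative depth ranged 1.28-fold, lowest in wild-type complete medium of batch 1. ATF3 mRNA was at 3.38 and 4.45 FPKM in the batch 1 libraries labelled knockout against 3.47 and 6.46 in wild type, and at 20.8 and 57.3 against 3.65 and 18.0 in batch 2, so the libraries labelled knockout of batch 2 held more of it than their wild type. Of 10 markers of retinal pigment epithelium, 2 passed the filter, MITF and SERPINF1; OTX2 was listed at 0 in all 8 libraries and RPE65 reached at most 0.695 FPKM (both picked after their values were seen). The batches also differed widely in genes outside the program: SPARC, a matrix protein, was between 343 and 429 FPKM in batch 1 and at most 1.66 in batch 2 under either label. The labels give 1 line for both batches, and whether the batches held the same line or clone was not tested, so a batch difference and a difference between lines cannot be told apart. The genotype is given below as labelled. In bulk RNA, fewer cells of a type and less RNA per cell cannot be told apart.

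The first question is what state the program was in under each batch and genotype label. The members were chosen by their FPKM levels across these batches and genotype labels, which were already known, so the levels are a description and no test is given. In batch 1 each member but CLDN4 stayed at or below 4.45 FPKM, in wild type of batch 2 some members were present, and in the batch 2 libraries labelled knockout all 10 were at 4.25 FPKM or more. Of the 10 members, 8 were at least 4-fold higher (a difference of 2 or more in log2(FPKM + 1)) in both media in the batch 2 libraries labelled knockout than in batch 2 wild type, a margin that 0.934% of all tested genes and 1.1% of protein-coding ones showed. In batch 1, 0 members were that much higher, against 0.1% of all tested genes, and 0 were that much lower, against 0.178%. The median difference over the members, averaged over both media, was 3.54 in batch 2 and −0.04 in batch 1, while the median over all tested genes was 0.0 and −0.03.

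**Figure D1:**
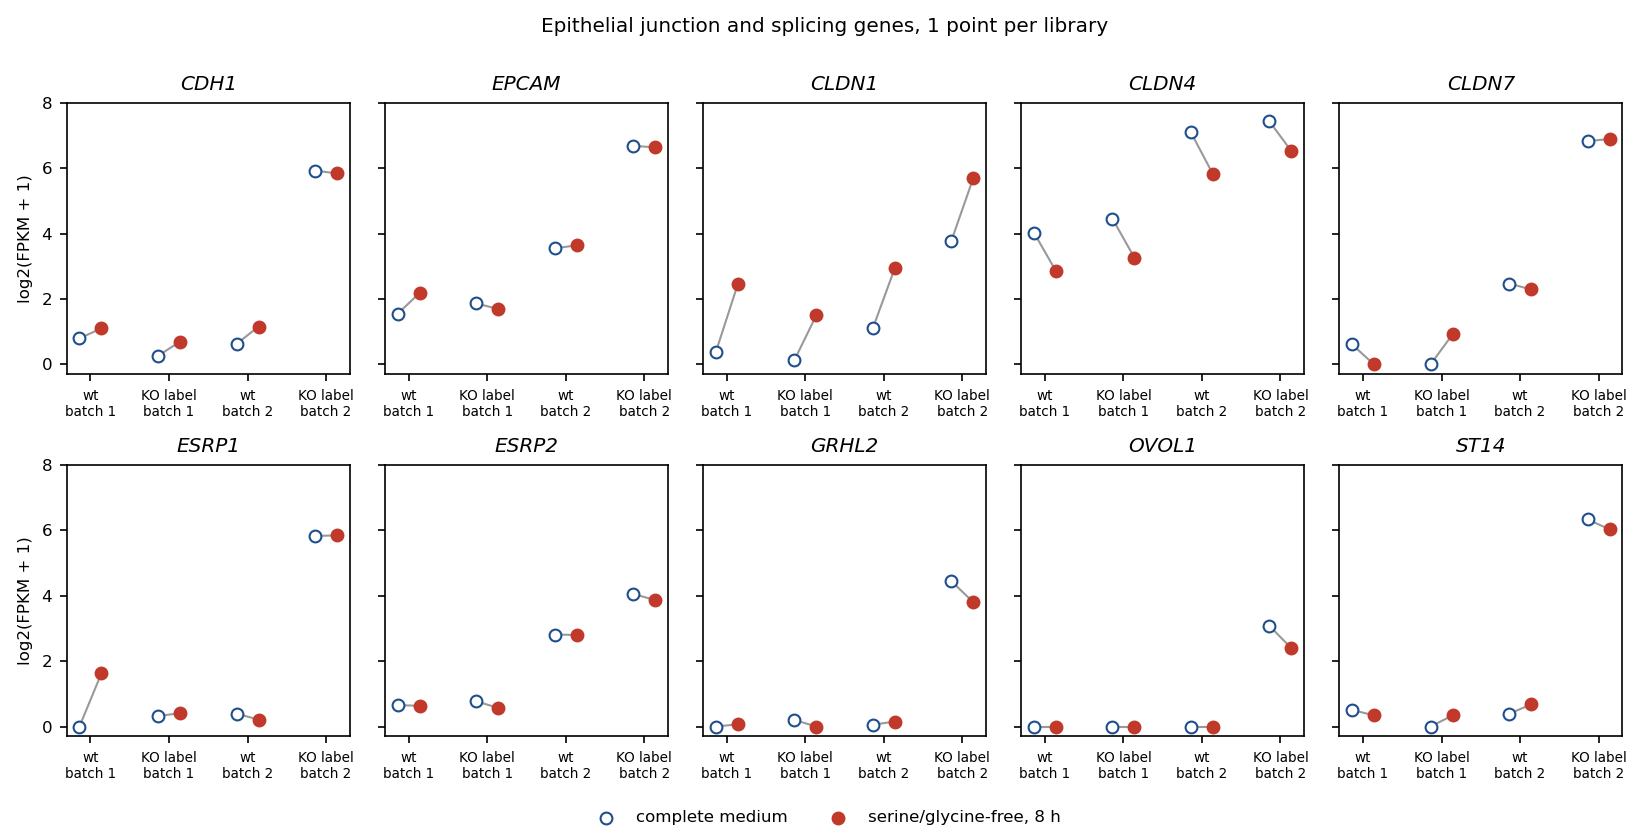
Level of each of the 10 genes in the 8 libraries, as log2(FPKM + 1) on the vertical axis, with genotype label and batch on the horizontal axis; open points are complete medium, filled points serine/glycine-free medium for 8 h, and a line joins the 2 libraries of a pair. The batch 2 libraries labelled knockout stand highest in all 10 panels except for CLDN4, where 1 wild-type library of batch 2 (135 FPKM) lies above 1 of them (90.8 FPKM).

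CDH1 encodes E-cadherin, the adhesion receptor of adherens junctions (ENSG00000039068, hg19 chromosome 16, 68771128 to 68869451). Wild type of batch 1 held 0.737 FPKM with serine and glycine and 1.15 without them, and the knockout label of batch 1 held 0.201 and 0.618. Wild type of batch 2 held 0.541 and 1.23, and the knockout label of batch 2 held 60.0 and 56.2. The 2 batch 2 libraries labelled knockout thus lay far above the other 6, none of which passed 1.23 FPKM. Within batch 2 the ratio of knockout-labelled to wild-type level was 111 in complete and 45.7 in serine/glycine-free medium.

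EPCAM, a surface glycoprotein of simple epithelia (ENSG00000119888, chromosome 2, 47572297 to 47614740), had a graded pattern, as CLDN7 and ESRP2 did. It was at 1.93 and 3.54 FPKM in batch 1 wild type (complete, then serine/glycine-free medium) and at 2.64 and 2.24 in the batch 1 libraries labelled knockout. It was at 10.7 and 11.5 in batch 2 wild type and at 102 and 98.5 in the batch 2 libraries labelled knockout. The 4 batch 1 libraries overlapped between the genotype labels, and the 3 levels (batch 1, batch 2 wild type, batch 2 knockout label) did not overlap.

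ST14 encodes matriptase, a membrane-anchored serine protease of epithelial surfaces (ENSG00000149418, chromosome 11, 130029457 to 130080271). It read 0.419 and 0.267 FPKM in batch 1 wild type, 0 and 0.264 in the batch 1 libraries labelled knockout, 0.307 and 0.598 in batch 2 wild type, and 79.5 and 64.3 in the batch 2 libraries labelled knockout. No library outside that last pair reached 1 FPKM.

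The claudins did not share one pattern. CLDN7 (ENSG00000181885, chromosome 17, 7143333 to 7167302, a locus with 6 listed genes, so reads may have been split) was at 0.526 and 0 FPKM in batch 1 wild type and at 0 and 0.889 in the batch 1 libraries labelled knockout. It was at 4.55 and 3.90 in batch 2 wild type and at 113 and 118 in the batch 2 libraries labelled knockout. CLDN7 therefore followed EPCAM, with batch 2 wild type between the extremes. CLDN4, by contrast, was present in every library (ENSG00000189143, chromosome 7, 73213872 to 73247014). Its levels were 15.3 and 6.24 FPKM in batch 1 wild type, 21.0 and 8.60 in the batch 1 libraries labelled knockout, 135 and 55.5 in batch 2 wild type, and 171 and 90.8 in the batch 2 libraries labelled knockout. It differed between the batches far more than between the genotype labels, whose ratio in batch 2 was 1.27 and 1.64. CLDN1 (ENSG00000163347, chromosome 3, 190023490 to 190040264) was at 0.295 and 4.45 FPKM in batch 1 wild type, 0.0873 and 1.83 in the batch 1 libraries labelled knockout, 1.15 and 6.68 in batch 2 wild type, and 12.7 and 51.0 in the batch 2 libraries labelled knockout. Its serine/glycine-free library was the higher one in each of the 4 pairs.

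The 2 splicing factors differed from each other. ESRP1 (ENSG00000104413, chromosome 8, 95653302 to 95719694) was at 0 and 2.09 FPKM in batch 1 wild type, 0.250 and 0.325 in the batch 1 libraries labelled knockout, and 0.315 and 0.156 in batch 2 wild type. It was at 55.8 and 56.5 in the batch 2 libraries labelled knockout, the pair that stood apart. Its paralog ESRP2 (ENSG00000103067, chromosome 16, 68021297 to 68272005, a locus with 18 listed genes) was at 0.572 and 0.553 FPKM in batch 1 wild type and 0.708 and 0.483 in the batch 1 libraries labelled knockout. It was at 6.02 and 5.96 in batch 2 wild type and 15.6 and 13.6 in the batch 2 libraries labelled knockout. In complete medium ESRP1 was thus the lower of the paralogs, per length, in batch 2 wild type and the higher in the batch 2 library labelled knockout. Gene-level FPKM does not show which exons were used, so splice forms are not described.

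The 2 transcription factors were close to absent outside 1 pair. GRHL2, a grainyhead factor that activates epithelial junction genes (ENSG00000083307, chromosome 8, 102473405 to 102681954), lay between 0 and 0.150 FPKM in the 4 batch 1 libraries, at 0.0375 and 0.112 in batch 2 wild type, and at 20.8 and 12.9 in the batch 2 libraries labelled knockout. OVOL1, a zinc finger factor of epithelial differentiation (ENSG00000172818, chromosome 11, 65554493 to 65564690), was listed at 0 in 6 libraries and at 7.43 and 4.25 FPKM in the batch 2 libraries labelled knockout, so no fold is given. Its locus also holds 2 antisense genes, and without a stated strand setting their reads and those of OVOL1 cannot be told apart.

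Wild type itself differed between the batches. CLDN4 and ESRP2 were at least 4-fold higher in batch 2 wild type than in batch 1 wild type in both media, 2 of 10 members, where 2.52% of all tested genes were. The differences in log2(FPKM + 1) were 3.06 and 2.96 for CLDN4 and 2.16 and 2.17 for ESRP2. EPCAM (2.00 and 1.46) and CLDN7 (1.86 and 2.29) lay nearest to that margin on the other side. CDH1 (−0.17 and 0.05) and GRHL2 (0.05 and 0.09) differed little between the same libraries. Between the libraries labelled knockout of batch 2 and of batch 1, 10 of 10 members passed the same margin, against 3.23% of all tested genes. These values cross the 2 tables. The median over all tested genes was −0.24 in complete and −0.21 in serine/glycine-free medium between the wild-type libraries, and −0.23 and −0.16 between those labelled knockout.

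**Figure D2:**
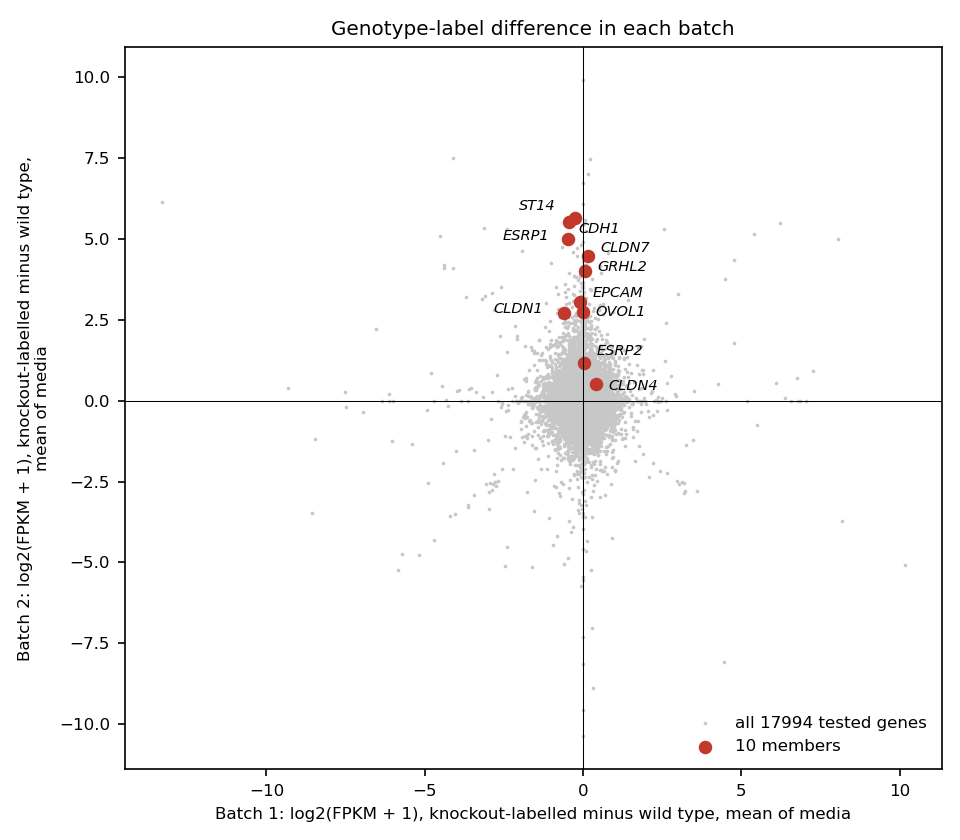
Difference in log2(FPKM + 1) between libraries labelled knockout and wild type, averaged over both media, in batch 1 (horizontal axis) and batch 2 (vertical axis); grey points are the 17994 tested genes and red points the 10 members. The members lie near 0 on the batch 1 axis and above 0 on the batch 2 axis, with CLDN4 and ESRP2 lowest.

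Other genes of epithelial junctions, polarity and control were read from 6 companion lists, drawn up with earlier results of these data known. In batch 2, 0.934% of all tested genes were at least 4-fold higher in both media under the knockout label than in wild type. Among protein-coding genes the share was 1.1%. Of the tight junction list, 4 of 14 tested genes were that much higher, with a median difference of 1.56. Of the adherens junction list, 2 of 9 were, with a median of 0.46, and of the desmosome list, 0 of 9 with a median of 0.62. Of the epithelial transcription factors, 3 of 9 were (median 1.42), of the surface protease partners 3 of 4 (median 2.85), and of the trafficking and polarity genes 4 of 8 (median 2.03). CRB3, LAD1 and PROM2, each counted here, passed the filter through the batch 2 libraries labelled knockout alone, so they had to stand apart there. RAB25, PPL and GRHL3, which enter the medians, passed it that way too. MARVELD3, OVOL2, PRSS8 and MAP7, also counted here, would not have passed the filter without those libraries. The same holds for NECTIN4, which enters a median. All of these but LAD1 were picked after their values were seen. In batch 1 no gene of these 6 lists was 4-fold higher or lower in both media, against 0.1% and 0.178% of all tested genes. The list medians in batch 1 lay between −0.27 and −0.09.

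The most abundant genes of each list show where the lists parted. CTNNB1, the beta-catenin that binds cadherin tails, was at 133 and 131 FPKM in batch 2 wild type and 126 and 133 in the batch 2 libraries labelled knockout and so was nearly level. JUP, plakoglobin, which also binds cadherin tails, was not: it was at 3.88 and 4.23 against 32.9 and 46.5, past the 4-fold margin (picked after its values were seen). CTNND1, the p120 catenin, was at 36.0 and 31.4 against 44.1 and 49.5. TJP1, the tight junction scaffold ZO-1, was at 19.7 and 30.3 against 20.8 and 32.7, and CLDN12 at 18.1 and 21.2 against 17.0 and 23.5. LSR, a protein of tricellular junctions, was at 6.24 and 4.01 against 35.6 and 36.2. Of these 6 genes JUP and LSR differed most between the genotype labels, and CTNNB1, CTNND1, TJP1 and CLDN12 differed far less than CDH1 did.

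Among the transcription factors KLF5 was at 17.1 and 23.2 FPKM in batch 2 wild type and 20.6 and 27.2 in the libraries labelled knockout. ELF3 was at 7.44 and 6.14 against 48.0 and 24.7, and EHF, like ELF3 an ETS factor of epithelia, at 2.38 against 22.1 in complete medium. SPINT2 and SPINT1, Kunitz-type inhibitors of matriptase, were present in batch 2 wild type although the protease ST14 was not. SPINT2 was at 118 and 119 FPKM there and at 255 and 241 in the libraries labelled knockout, and SPINT1 at 6.78 and 6.05 against 44.5 and 36.5. In batch 1 SPINT2 reached at most 0.854 FPKM and SPINT1 at most 0.193.

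Splicing regulators outside the ESRP family did not share the pattern. Of 10, 1 was at least 4-fold higher in the batch 2 libraries labelled knockout, against 0.934% of all tested genes, with a list median of −0.34. That gene was RBM47, an RNA-binding protein of epithelia, at 0.467 and 0.281 FPKM in wild type and 15.1 and 10.2 in the libraries labelled knockout; it was picked after its values were seen. SRSF1 (202 and 133 against 139 and 112), PTBP1 (70.3 and 68.4 against 54.1 and 71.4) and HNRNPM (58.1 and 56.9 against 46.0 and 48.0) were lower there in complete medium.

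Of 5 tested repressors of epithelial genes, 4 were lower in both media in the batch 2 libraries labelled knockout, none past the 4-fold margin. The list median was −1.25, and the median over all tested genes 0.0. The share of all tested genes lower in both media was not taken, so the count of 4 has no background. The exception was SNAI1, at 0.107 and 0 FPKM in wild type and 0.982 and 1.48 in the libraries labelled knockout (picked after its values were seen). ZEB1, a repressor of CDH1, was at 9.97 and 12.0 FPKM in batch 2 wild type and 3.08 and 4.26 in the libraries labelled knockout. SNAI2 was at 15.5 and 21.5 against 4.58 and 6.90, and TWIST1 at 12.8 and 12.6 against 7.07 and 5.39. In batch 1, where CDH1 was low under both labels, ZEB1 lay between 11.1 and 18.3 FPKM. Mesenchymal markers summed to 703 and 769 FPKM in batch 2 wild type and 210 and 204 in the libraries labelled knockout, against 1330 to 1855 over batch 1. VIM, vimentin, at 598 and 638 against 118 and 102, made most of that difference, and without it the batch 2 sums were 105 and 131 against 91.3 and 102. VIM was the 1 gene of 9 tested that was at least 4-fold lower, and the list median was −0.09. The share of all tested genes that much lower in batch 2 was not taken. FN1, fibronectin, was at 44.5 and 58.7 against 38.3 and 56.7. CDH2 was also lower in both media, at 28.7 and 44.3 against 14.5 and 20.7 (picked after its values were seen). SPARC, low in this batch, was lower too, at 0.620 and 1.66 against 0.450 and 0.0903. COL1A1 (1.99 and 0.973 against 2.53 and 1.80) and ACTA2 (0.130 and 0.299 against 0.680 and 1.09) were higher in both media. Both were picked after their values were seen. Of the immune list CD68 was the 1 gene of 5 that passed the filter, with list sums of 1.73 to 4.75 FPKM in batch 1 and 10.3 to 15.5 in batch 2; PTPRC, the pan-leukocyte marker, stayed at or below 0.570. Of 5 endothelial markers 4 were matched, and none passed the filter. The part of these markers in the state of the program was not tested.

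**Figure D3:**
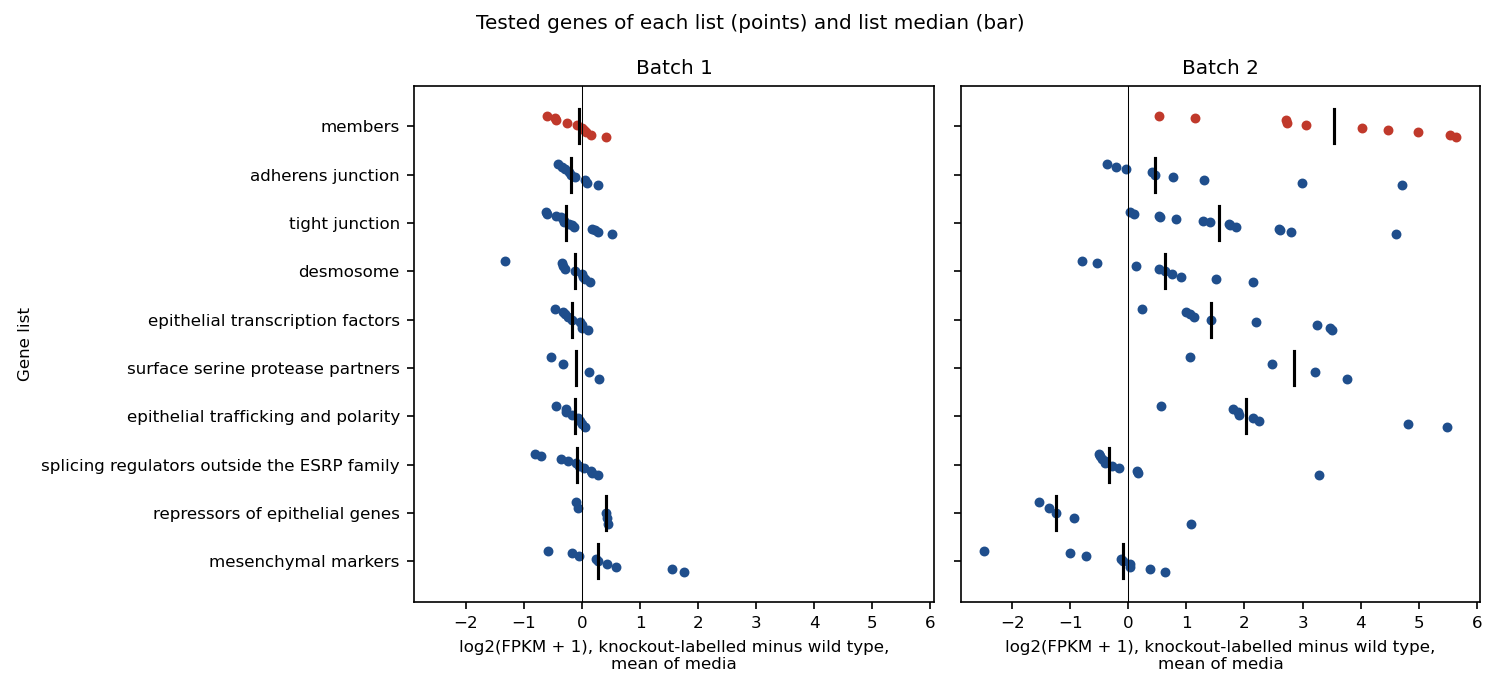
Difference in log2(FPKM + 1) between libraries labelled knockout and wild type, averaged over both media, for each tested gene (point) of the members and 9 companion lists in batch 1 (left) and batch 2 (right); bars are list medians. In batch 1 the medians lie between −0.27 and 0.41, and in batch 2 between −1.25 for the repressors and 3.54 for the members.

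The genes whose pattern was most like the members' were found by Pearson correlation of log2(FPKM + 1) over the 8 libraries with the mean z-score of the 10 members, among 9526 genes outside all lists that reached 10 FPKM. LCN2, a secreted lipocalin, had the highest r (0.997), with 0.815 to 2.70 FPKM in batch 1, 7.66 and 8.96 in batch 2 wild type, and 1067 and 1329 in the batch 2 libraries labelled knockout. TMEM30B (r = 0.996), SLC44A2 (0.996), C1orf116 (0.993), IL13RA2 (0.992) and ERGIC3 (0.991) followed. In all, 104 of these genes had r above 0.95. The 8 points share 2 tables and are set mainly by 1 pair of libraries, so r describes a shared level there. Among the members themselves CLDN4 (0.761) and CLDN1 (0.860) correlated least with the mean profile.

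The second question is how the program responded to 8 h without serine and glycine. Here 2 claudins moved in opposite directions in every pair, CLDN1 up and CLDN4 down, and the other 8 members did not pass the test. The response was fitted with limma on log2(FPKM + 1) over all 17994 genes, with each genotype and batch pair as a block, and p-values were adjusted by Benjamini-Hochberg. Of the 10 members, 1 was called higher and 1 lower at adjusted p under 0.05, where 0.417% of all tested genes were called higher and 0.0611% lower. The median response was 0.04 over the members and 0.02 over all tested genes.

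CLDN1 rose in the medium lacking serine and glycine. The ratio of the serine/glycine-free to the complete library was 15.1 in wild type and 20.9 in the knockout label of batch 1, and 5.83 and 4.02 in batch 2. On the log2(FPKM + 1) scale, which understates the change of low genes, the differences were 2.07 and 1.38 in batch 1 and 1.84 and 1.93 in batch 2. The fitted response was 1.80 ± 0.16 (SE, n = 4 pairs; 95% interval 1.41 to 2.20; limma adjusted p = 0.0314), and CLDN1 was higher in 4 of 4 pairs, as were 14.6% of all tested genes. The batch 1 complete libraries held 0.295 and 0.0873 FPKM, so the large ratios there rest on small denominators.

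CLDN4 fell over the same 8 h. The ratio was 0.41 in wild type of both batches, 0.41 in the knockout label of batch 1 and 0.53 in that of batch 2, although the starting levels ranged from 15.3 to 171 FPKM. The fitted response was −1.14 ± 0.09 (SE, n = 4 pairs; 95% interval −1.35 to −0.92; limma adjusted p = 0.0264), lower in 4 of 4 pairs, as were 11.4% of all tested genes. The spread between the 4 pairs, −1.27 to −0.91, was small beside the response.

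Both calls depended on the number of pairs and on settings of the fit. Leaving out any 1 library removes its pair, and the adjusted p of limma then rose to between 0.139 and 0.238 for CLDN1 and between 0.112 and 0.238 for CLDN4, while the response stayed between 1.72 and 1.95 and between −1.21 and −1.09. Neither gene was called by limma with no filter on low values (adjusted p = 0.118 for CLDN1 and 0.102 for CLDN4), with a prior without trend (0.0989 and 0.113), without both batch 2 libraries labelled knockout (0.199 and 0.191) or with no replicate block (1.00 for each). CLDN1 was also not called with the batch alone as a block (adjusted p = 0.331) or with a pseudocount of 0.1, where its response was 2.83 (adjusted p = 0.0536). With protein-coding genes only, an alternative chosen after seeing the data, both were called (adjusted p = 0.00216 and 0.00131), among 4.68% of those genes.

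**Figure D4:**
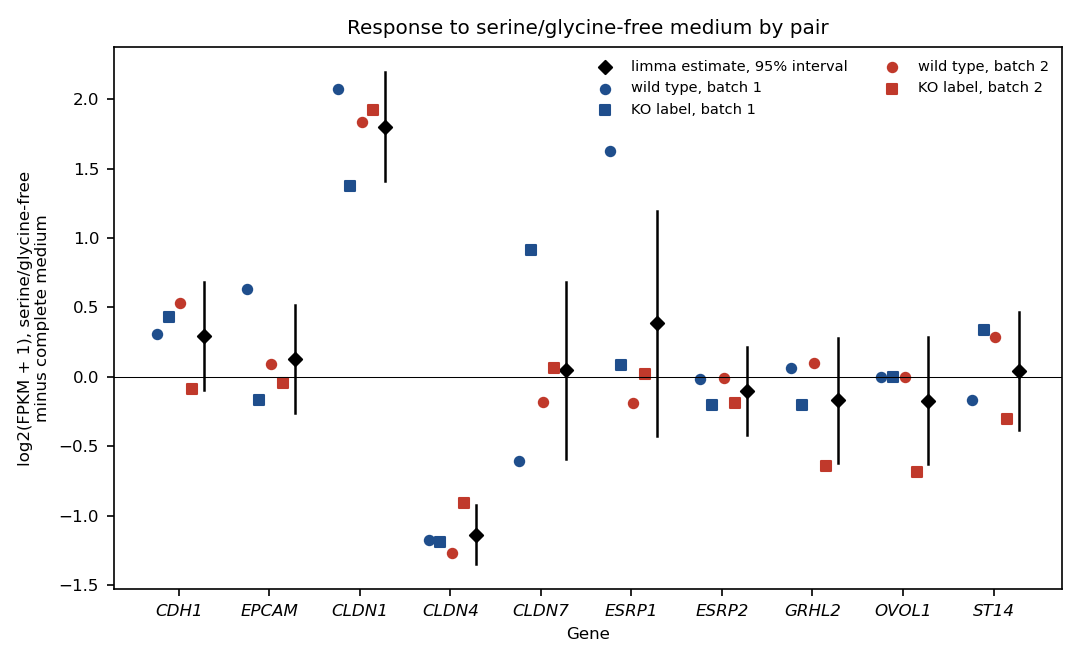
Difference in log2(FPKM + 1) between serine/glycine-free and complete medium for each member, with 1 point per genotype and batch pair; diamonds and bars are the limma estimate and its 95% interval. All 4 points of CLDN1 lie between 1.38 and 2.07 and all 4 of CLDN4 between −1.27 and −0.91, while the intervals of the other 8 genes include 0.

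Promoter sequence is shown for the claudins because RefSeq start-site windows matched only these 3 of the 10 members by symbol. The windows are in GRCh38.p14, not the hg19 build of the tables. CLDN1 and CLDN4 moved in opposite directions with the medium. CLDN7 went from at most 0.889 FPKM in batch 1 to 113 and 118 in the batch 2 libraries labelled knockout. The 250 bases before each start were searched on both strands for CACCTG, the E-box letters bound by ZEB and SNAIL factors, TGANTCA, the letters of the AP-1 element, TGATGNAA, a C/EBP-ATF composite element, and AACCNGTT, a grainyhead element. Capitals mark matches.
CLDN1, chr3:190322476-190322696, minus strand: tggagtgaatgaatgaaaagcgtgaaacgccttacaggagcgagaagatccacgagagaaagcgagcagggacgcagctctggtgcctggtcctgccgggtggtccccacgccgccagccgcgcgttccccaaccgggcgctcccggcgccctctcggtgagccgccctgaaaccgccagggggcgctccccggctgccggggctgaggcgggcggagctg
CLDN4, chr7:73830747-73830767, plus strand: tgggctgTGATTCAgtgtctg
CLDN4, chr7:73830828-73830848, plus strand: tggatagTGACTCAgggaccc
CLDN7, chr17:7262479-7262508, minus strand: tacatatactCAGGTGcgcccCACCTGtcc

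The CLDN1 window held none of the 4 motifs. The CLDN4 window held TGANTCA at 2 places, beginning 242 and 161 bases before the start, letters that 6.57% of all 35116 windows hold. Of the 2 CLDN7 windows, the one printed in part held CACCTG, on one strand or the other, at 4 places. These began 174, 135, 20 and 9 bases before the start, and only those at 20 and 9 lie in the printed stretch. Of all windows, 17.5% hold CACCTG at least once. The other CLDN7 window, from an upstream start, held none. TGATGNAA is in 3.14% of windows and AACCNGTT in 1.49%. A match describes letters only.

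The other members did not pass in the medium comparison. CDH1 had a response of 0.30 ± 0.16 (adjusted p = 0.377, n = 4 pairs, limma) and was higher in 3 of 4 pairs, the exception being the batch 2 knockout label, where its level was 60.0 against 56.2 FPKM. ESRP2 was lower in 4 of 4 pairs, by little, at −0.10 ± 0.13 (adjusted p = 0.711). ESRP1, at 0.39 ± 0.33 (adjusted p = 0.581), took that value largely from batch 1 wild type, where it read 0 and 2.09 FPKM. GRHL2 (−0.17 ± 0.18), OVOL1 (−0.17 ± 0.18), EPCAM (0.13 ± 0.16), CLDN7 (0.05 ± 0.26) and ST14 (0.04 ± 0.17) had adjusted p between 0.669 and 0.949.

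In the 1 pair where the program was high, the members kept their levels to different degrees. From complete to serine/glycine-free medium ESRP1 (ratio 1.01), CLDN7 (1.04), EPCAM (0.97) and CDH1 (0.94) stayed near 1. The factors GRHL2 and OVOL1 had ratios of 0.62 and 0.57, ST14 0.81 and ESRP2 0.87. This is 1 pair of libraries, with no replicate of that state.

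Whether the response depended on genotype label or batch was tested as an interaction. For CLDN1 the response in the knockout label minus that in wild type was −0.30 (95% interval −1.18 to 0.57; limma adjusted p = 1.00), and the response in batch 2 minus that in batch 1 was 0.16 (−0.72 to 1.03; adjusted p = 0.887). With a pseudocount of 0.1 that batch difference of CLDN1 was −1.22 (limma adjusted p = 0.476). For CLDN4 these were 0.17 (−0.30 to 0.64; adjusted p = 1.00) and 0.09 (−0.36 to 0.55; adjusted p = 0.870). No member passed either interaction, where limma called 0.0389% and 0.106% of all tested genes, 7 and 19 genes. At an unadjusted limma p under 0.05 there were 0 members in either, against 507 and 1931 of all 17994 tested genes. The intervals for CLDN1 reach a difference of −1.18 between genotype labels and 1.03 between batches, so these tests do not show that the responses were alike.

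Of 103 matched companion genes, 80 passed the filter, in 11 of the 12 lists. In the medium comparison limma called 0 of these 80, against 0.417% of all tested genes called higher and 0.0611% lower. At an unadjusted limma p under 0.05 there were 15 of the 80, against 3271 of all 17994 tested genes, a similar share. The median response of each list with at least 2 tested genes lay between −0.11 and 0.14. Among other claudins CLDN12 had a response of 0.20 (adjusted p = 0.350), and CLDN3, picked after its values were seen, −0.03 (adjusted p = 0.964). SRSF1, at −0.43 (adjusted p = 0.0768), was lower in serine/glycine-free medium in 4 of 4 pairs.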

How the data were processed

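Each batch has 1 table of 4 libraries in FPKM, as deposited by the authors. TopHat, Cufflinks, Cuffdiff and hg19 are named in the submitters' processing notes, without versions or settings. The headers name no unit, and FPKM was taken from those tools and the values. Depth is known only relative to other libraries. Loci are hg19, 1-based. Groups and numbers came from the sample titles.

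Limma 3.58.1 (R 4.3.3) fitted log2(FPKM + 1) of the 17994 genes at 1 FPKM or more in at least 2 libraries, with 4 genotype and batch pairs as a block, a trended prior and two-sided Benjamini-Hochberg p-values (threshold 0.05), leaving 3 residual degrees of freedom for the response and 2 for each interaction. The block follows the labels, which state that a number marks a shared batch. The correlation of deviations from group means between libraries of 1 number was 0.650 to 0.775 (12 pairs). With 2 libraries per group the deviations of the batches mirror each other, so both batches give the same correlations. Any difference between the tables would also give such values. In simulated data for the response over 17994 genes, 48% of genes changed by a log2 of 1 and 76% of those changed by 2 were called, with 7 unchanged genes called. The noise was drawn independently for each library, with no medium response shared within a batch. These shares hold for that setting only. The p-values rest on 2 independent experiments, while the fit treats the 4 pairs as independent.

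The members and lists were chosen with earlier results of these data known, so levels by genotype label and batch carry no test. Named genes are the 10 members and ATF3, up to 3 genes per companion list with the highest mean FPKM, and the 6 genes most like the members' mean profile. One gene so chosen is not reported here; listed genes named outside this rule are marked as picked after their values were seen. Protein-coding genes were taken from GENCODE, matched on Ensembl ID. Of 104 companion genes, 103 matched a row by symbol or by Ensembl ID. Alternatives changed 1 choice at a time: libraries, prior, block, scaling, filter or pseudocount.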

Additional observations from a re-analysis of the deposited data

Results flagged for a closer look

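CDH1, CLDN1, ST14 and ATF3 differed between the batches in the direction of the genotype contrast: both media gave a lower value in the libraries labelled knockout in batch 1 and a higher one in batch 2. The difference between the batches, on the log2(FPKM + 1) scale and averaged over both media, was 5.46 for CDH1, 3.31 for CLDN1, 5.90 for ST14 and 2.16 for ATF3. These differences were not tested, since each batch holds 1 library per genotype label and medium, and the batch 1 levels of CDH1 (0.201 to 1.15 FPKM) and ST14 (0 to 0.419 FPKM) were low under both labels. CLDN1 was low in batch 1 complete medium, at 0.0873 FPKM under the knockout label against 0.295. Some batch 1 values were nearly equal: ST14 at 0.264 against 0.267 FPKM in serine/glycine-free medium, and ATF3 at 3.38 against 3.47 in complete medium.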

How the results depend on the processing

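The response to serine/glycine-free medium called 86 genes, 2 of them members. It called 52 genes (1 member) with a pseudocount of 0.1, 26 (1 member) with the batch only as block, 612 with protein-coding genes only, and 1 (0 members) with no replicate block, a fit that ignores the pairing. Limma called 0 genes and 0 members with no filter on low values (3615 at an unadjusted p under 0.05), with a prior without trend (3010) and without both batch 2 libraries labelled knockout (2574), and 0 to 8 genes and 0 members with 1 library left out, 8 without either wild-type library of batch 2. The cause of the changes was not tested.

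The genotype difference of the response called 7 genes. It called 4 with a pseudocount of 0.1, with a mean FPKM of 1 or more and with quantile normalization, 11 with the batch only as block, 3 with no replicate block, 1 without both batch 2 libraries labelled knockout, 0 to 1 with 1 library left out, and 0 with no filter (971 at an unadjusted p under 0.05) and with protein-coding genes only (321). The batch difference called 19 genes, against 6 with a pseudocount of 0.1, 8 with protein-coding genes only, and 0 with no filter (2740), without both batch 2 libraries labelled knockout (1239) and with any 1 library left out (1221 to 2062).

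CLDN1 kept its direction in 18 of 18 alternatives (1.72 to 2.83) and its call in 4; CLDN4 kept its direction in 18 (−1.21 to −1.09) and its call in 6. Estimates near 0 changed sign. With quantile normalization the response of ST14 was −0.010 and the batch difference of CLDN4 −0.012. The batch difference of CLDN1 was −1.22 with a pseudocount of 0.1, and that of CLDN4 −0.089 without both batch 2 libraries labelled knockout. With 1 library left out the response lay between −0.040 and 0.23 for EPCAM, −0.028 and 0.58 for ESRP1, −0.24 and 0.27 for CLDN7, and −0.058 and 0.15 for ST14, and the batch difference between −0.19 and 0.50 for CLDN1 and −0.089 and 0.27 for CLDN4. The 8 members at least 4-fold higher in the batch 2 libraries labelled knockout were 8 under both alternatives.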

Other observations

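Some junction and polarity genes were higher in batch 1 than in batch 2, the reverse of most members. AP1M2, the epithelial adaptor subunit for basolateral sorting, was at 104 and 77.9 FPKM in batch 1 wild type and 105 and 69.2 in the batch 1 libraries labelled knockout, and at 0 and 0.0796 in batch 2 wild type against 26.6 and 30.2 in the batch 2 libraries labelled knockout. CTNNA1, alpha-catenin, which links cadherin complexes to actin, was at 67.5 to 97.0 FPKM in batch 1 and at 4.58 and 10.5 in batch 2 wild type and 5.53 and 16.0 in the libraries labelled knockout. The batch 2 libraries labelled knockout therefore combined the highest CDH1 of the series with low CTNNA1.

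Other genes of cell attachment and trafficking also stood far apart between the batches or labels. PKP1, the desmosomal protein plakophilin 1, was at most 0.0634 FPKM in batch 1, at 72.3 and 77.6 in batch 2 wild type and at 45.9 and 57.2 in the libraries labelled knockout. MAL2, a transcytosis protein, was at 0.357 to 2.18 FPKM in batch 1, 96.5 and 111 in batch 2 wild type, and 366 in both libraries labelled knockout. LAD1, a protein of basement membrane anchors, was at 0.459 and 0.898 in batch 2 wild type and 69.0 and 78.9 in the libraries labelled knockout. Levels across the batches cross the 2 tables, and these contrasts were not tested.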
